A study of Mus musculus with 36 samples.

Results

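The glucose and fructose transporters described here are 9 genes of the Slc2a family: Slc2a1, Slc2a3, Slc2a4, Slc2a5, Slc2a6, Slc2a8, Slc2a9, Slc2a10 and Slc2a12. They were chosen by gene symbol among the probes of the array that were not controls, and all probes of each gene were taken. These were 9 of 27597 named genes on the array, represented by 15 probes. Of the 15 probes, 10 passed the filter on dim signals, and all 9 genes had a passing probe, among 16500 genes that did. A probe passed where at least 9 of the 12 arrays of a group had its signal well above background.

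RNA came from the epididymal white adipose tissue, a visceral fat depot of males, and the animals were 36 adult C57BL/6J mice, each measured on 1 two-colour array. Every animal ate a purified diet with 30 energy percent fat ad libitum for an adaptation of 3 weeks. The 12 t=0 animals were killed at that point. The 12 HF-AL animals went on eating it freely through 12 further weeks. Over those weeks the 12 HF-DR animals were restricted, to a level the labels write as 70 en%, with vitamins and minerals added in proportion. The 3 groups therefore share strain, sex and diet fat, HF-DR and HF-AL differ in the amount eaten and in the added premix, and both are 12 weeks older than t=0. Each value below is the log2 ratio of an animal's signal to a pool of all samples, so it compares animals for 1 probe and says nothing about the level of one gene against another.

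Proteins of the Slc2a family, the GLUT transporters, let hexoses cross membranes down their concentration gradient. In white fat, GLUT4 (Slc2a4) is the insulin-responsive carrier, held in vesicles inside the adipocyte and moved to the surface when insulin binds its receptor, while GLUT1 (Slc2a1) serves uptake without insulin. GLUT5 (Slc2a5) is specific for fructose and is best known from the small intestine and from sperm. The other members carry glucose, urate or dehydroascorbate, several of them inside the cell.

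Of the 9 members, 7 had a promoter entry in the RefSeq table of build GRCm38.p6, and Slc2a3 and Slc2a4 had none. The 250 bases before the start are shown for Slc2a5 and Slc2a12, the members with an entry that differed by more than 2-fold between HF-DR and HF-AL. Capitals mark matches to any of 5 motifs searched on both strands: the E-box CACGTG, the GC box GGGCGG, the CCAAT box CCAAT, the TATA box TATAAA and the sterol regulatory element core TCACNCCAC. Slc2a5 is on the plus strand at chr4:150119094-150119343 and Slc2a12 on the plus strand at chr10:22644761-22645010.
Slc2a5: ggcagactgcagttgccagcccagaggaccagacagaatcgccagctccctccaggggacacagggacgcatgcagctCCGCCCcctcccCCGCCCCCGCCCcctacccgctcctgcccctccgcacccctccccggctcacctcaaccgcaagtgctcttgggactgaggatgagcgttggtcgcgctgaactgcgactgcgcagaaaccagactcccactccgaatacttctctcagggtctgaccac
Slc2a12: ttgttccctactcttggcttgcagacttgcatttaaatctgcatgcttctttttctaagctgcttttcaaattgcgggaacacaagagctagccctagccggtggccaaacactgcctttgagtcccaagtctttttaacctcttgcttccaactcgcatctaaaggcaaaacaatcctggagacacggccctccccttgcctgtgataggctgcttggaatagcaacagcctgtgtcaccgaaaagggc
The Slc2a5 window held 3 GC boxes, all on the minus strand, whose first bases lay 172, 160 and 154 bases before the start; the latter pair stand end to end without overlap. A GC box occurred in 32.7% of 32851 promoter windows of the same length. The Slc2a12 window held no match to any of the 5 motifs. CACGTG occurred in 6.02% of all windows, CCAAT in 33.8%, TATAAA in 12.4% and TCACNCCAC in 1.05%. GC content was 66.4% in the Slc2a5 window and 48.8% in the Slc2a12 window. A match is a run of letters and not a shown binding site.

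Arrays differed in brightness, with a median net Cy5 signal of 54.4 to 322 and between 45.2% and 86.6% of spots well above background. All 15 mature adipocyte markers passed the filter. An earlier analysis of these data named 7 arrays for transcripts of the male reproductive tract, called tract arrays below: HF-DR replicates 7, 8 and 9, HF-AL replicates 5, 7 and 9, and t=0 replicate 6. The mean log2 ratio of the 6 passing epididymis and seminal vesicle genes, of 11 listed (Svs2, Svs3a, Svs4, Svs5, Svs6 and Pate4), was 5.83 and 5.34 in HF-DR replicates 8 and 9, -0.38 in HF-DR replicate 7 and -2.81 in t=0 replicate 6. It lay between -5.77 and -3.96 on every other array. The mean of the 5 passing testis and sperm genes, of 9 listed, was 1.12, 2.46 and 1.76 in HF-AL replicates 5, 7 and 9, and between -1.12 and 0.16 on the other arrays. Several transporters stood apart on these same arrays, so each comparison is given with all 36 arrays and with the 29 arrays that remain without them.

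Of the 9 transporters, 2 rose and 3 fell between restricted and ad libitum feeding, and none was called between HF-AL and t=0. In HF-DR against HF-AL, Slc2a5 and Slc2a4 were higher, and Slc2a12, Slc2a3 and Slc2a6 were lower. Over all genes with a passing probe, 28.8% were called higher and 35.9% lower in this comparison at an adjusted p under 0.05 (limma over all 36 arrays, Benjamini-Hochberg adjustment over 24704 probes). The member counts, 2 and 3 of 9, were near the share of all genes that were called, so they are not a result about the members. The median log2 difference was -0.10 over the 9 members and -0.04 over all genes. Past 2-fold were Slc2a5, Slc2a4 and Slc2a12, against 5.61% of all genes. With the tract arrays left out 3 members were called higher and 5 lower, against 30.7% and 36.0% of all genes, and Slc2a9 alone was not called.

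In bulk tissue, a lower level can come from fewer cells of a type or from less RNA per cell, and these cannot be told apart here. Markers of cell types moved between the groups as well. The counts below stand against 28.8% of all genes higher and 35.9% lower, and 30.7% and 36.0% without the tract arrays. All 12 fibroblast and preadipocyte markers were lower in HF-DR than in HF-AL, with a median log2 difference of -0.98, and all 12 were lower without the tract arrays too. Of 14 macrophage markers, 13 were lower, with a median of -0.65, and 12 were lower without the tract arrays. Of 15 mature adipocyte markers, 9 were lower and Acsl1, an enzyme that activates fatty acids, was higher, with a median of -0.59. On the 29 arrays 9 were lower and 3 higher. Endothelial markers were lower for 5 of 10 and higher for 1, with a median of -0.21. Of the 3 neutrophil markers that passed, 2 were higher, with a median of 0.80, and without the tract arrays 2 were higher too. All 5 red blood cell markers that passed were higher, with a median of 0.59, and 2 were higher on the 29 arrays. Of the 6 skeletal muscle markers that passed, 2 were lower, with a median of -0.16, and 4 were lower on the 29 arrays. The part of these cell types in the transporter differences was not tested.

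**Figure D1:**
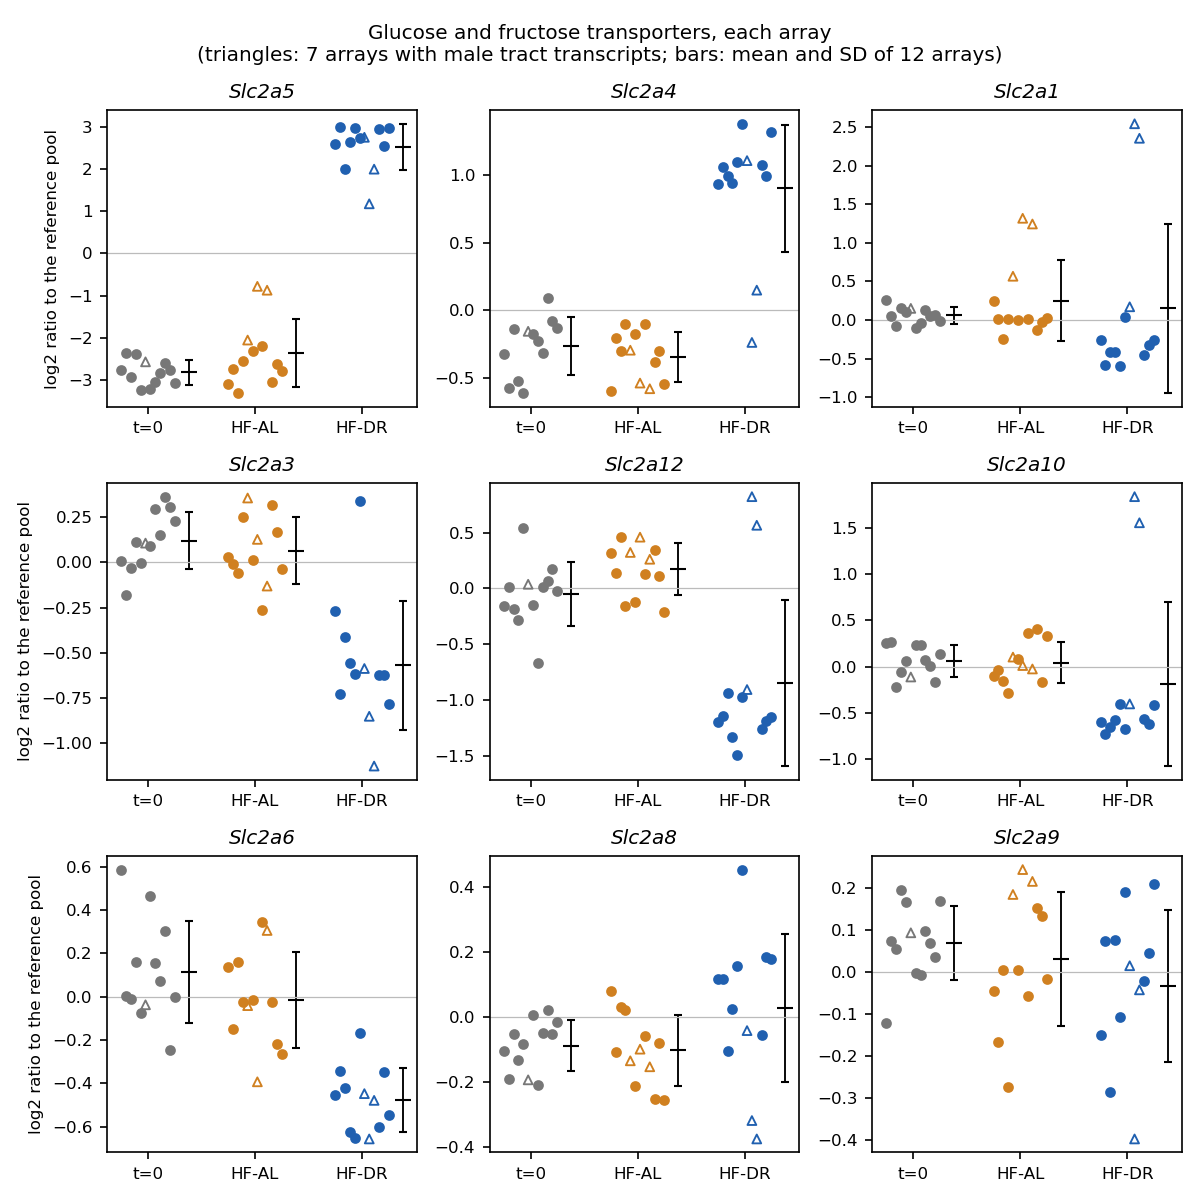
Log2 ratio of each transporter to the reference pool (vertical axes) on every array of t=0, HF-AL and HF-DR, 12 arrays a group. Open triangles are the 7 tract arrays and bars give the mean and SD of all 12 arrays. Slc2a5 in HF-DR lies between 1.17 and 2.99, above every array of the other groups, and HF-DR replicates 8 and 9 lie far above the rest of HF-DR for Slc2a1, Slc2a10 and Slc2a12.

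Slc2a5, the fructose transporter, showed the largest difference of the 9 members. Its probe lies at chr4:148987466-148987525 on the plus strand of mm8, the build of the array file. The log2 ratio was -3.23 at lowest, -2.81 at median and -2.37 at highest in t=0. In HF-AL these values were -3.31, -2.59 and -0.78, and in HF-DR they were 1.17, 2.68 and 2.99. Every HF-DR array was above every array of the other groups, and the probe was well above background on all 36 arrays. HF-DR was 29.6-fold above HF-AL, a log2 difference of 4.89 (standard error 0.23, 95% interval 4.42 to 5.35, limma adjusted p = 1.2e-19). By this difference Slc2a5 ranked 2 of 16500 genes.

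Within HF-AL the arrays with the highest Slc2a5 were the tract arrays, at -2.05, -0.78 and -0.87 in replicates 5, 7 and 9, against -3.31 to -2.20 on the other 9. Within HF-DR the lowest values, 1.17 and 1.99, were those of replicates 8 and 9. Replicate 3, not a tract array, was close to the latter at 2.00, and replicate 7, a tract array, was at 2.75. The part of male tract RNA in the values of either group was not tested. Leaving out the tract arrays gave a difference between HF-DR and HF-AL of 5.45 on the log2 scale, or 43.6-fold (limma adjusted p = 2.9e-24). On the 3 slides that held both groups, none with a tract array of either, it was between 4.80 and 5.63. With slide as a block it was 4.87 (limma adjusted p = 3.3e-09). In that fit arrays alone on their slide, among them all HF-DR tract arrays, do not inform the difference. The size of the fold, though not the call, depended on how the background was handled: the log2 difference was 4.28 when spots with signals far below their background stayed in the fit of the background, and 5.61 with the authors' processed signals.

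Slc2a4, the insulin-responsive glucose transporter, rose in the same group by a smaller amount. Its single probe, at chr11:69758766-69758825 on the minus strand of mm8, was printed in 10 spots. Over these spots the SD of the log2 ratio of net signals was 0.088 at the median array and 0.26 at most. That SD was taken before normalization and with flagged spots kept. The log2 ratio was -0.62 at lowest, -0.20 at median and 0.09 at highest in t=0, and -0.60, -0.30 and -0.10 in HF-AL. In HF-DR it was -0.24, 1.03 and 1.38. Of the 12 HF-DR arrays, 10 lay between 0.93 and 1.38, above every array of the other groups, while replicate 8 was at -0.24, inside the range of the other groups, and replicate 9 at 0.15, just above it.

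HF-DR exceeded HF-AL by 1.25 on the log2 scale for Slc2a4, or 2.37-fold (standard error 0.12, 95% interval 1.00 to 1.5, limma adjusted p = 6.4e-11). Without the tract arrays the groups did not overlap and the difference was 1.39, or 2.63-fold (limma adjusted p = 4.0e-15). It was between 1.32 and 1.54 on the 3 shared slides, and 1.51 with slide as a block (limma adjusted p = 1.6e-09). The mean log2 ratio of the 15 mature adipocyte markers was -1.19 on each of HF-DR replicates 8 and 9, and between -0.19 and -0.06 on the 9 HF-DR arrays that are not tract arrays. Among HF-DR arrays Slc2a4 was lowest on those same replicates; the part of the cell mixture in this was not tested.

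Slc2a1, the carrier of uptake without insulin, and Slc2a3, a high-affinity glucose transporter best known from neurons and blood cells, belong to the same sequence class as Slc2a4. Slc2a1 was between -0.11 and 0.25 in t=0 with a median of 0.06, between -0.24 and 1.32 in HF-AL with a median of 0.01, and between -0.59 and 2.54 in HF-DR with a median of -0.29. The high values were those of tract arrays: 2.54 and 2.35 in HF-DR replicates 8 and 9, and 0.57, 1.32 and 1.24 in HF-AL replicates 5, 7 and 9. With all arrays HF-DR and HF-AL differed by -0.10 on the log2 scale (95% interval -0.66 to 0.45, limma adjusted p = 0.76). On the 29 other arrays Slc2a1 was lower in HF-DR by a log2 difference of -0.35 (limma adjusted p = 3.5e-05), with groups at -0.59 to 0.035 and -0.24 to 0.25 that still overlapped. With slide as a block the difference was -0.63 (limma adjusted p = 0.016). That fit draws nothing from HF-DR replicates 8 and 9, which were alone on their slides. The probe lies at chr4:118635191-118635250 on the plus strand of mm8.

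Slc2a3 fell. Its passing probe, at chr6:122693676-122693735 on the minus strand of mm8, gave log2 ratios of -0.18 at lowest, 0.11 at median and 0.36 at highest in t=0, of -0.26, 0.02 and 0.36 in HF-AL, and of -1.13, -0.62 and 0.34 in HF-DR. Of the 12 HF-DR arrays 1, replicate 6, was close to the highest arrays of the other groups, at 0.34, and the other 11 were at or below -0.27. HF-DR was lower than HF-AL by a log2 difference of -0.63 (standard error 0.10, limma adjusted p = 8.8e-07), and by -0.52 without the tract arrays (limma adjusted p = 6.8e-05). The 3 shared slides gave -0.89 to -0.37, and the fit with slide as a block gave -0.38 (limma adjusted p = 0.024). Macrophage markers, whose mean log2 ratio was -0.21 to 0.26 in HF-AL and -1.37 to -0.35 in HF-DR, were lower in the same group. The mean of the 3 passing neutrophil markers was higher in HF-DR, at -0.70 to -0.22 in HF-AL and 0.09 to 0.98 in HF-DR, and the mean of the 5 red blood cell markers was -1.24 to 0.44 in HF-AL and -0.65 to 1.36 in HF-DR. The part of these cells in the Slc2a3 difference was not tested. The remaining 2 Slc2a3 probes did not pass the filter, and the array file places 1 of them on chromosome 17 rather than 6, so neither was used.

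Slc2a12 encodes GLUT12, a glucose transporter that, like GLUT4, has been described as insulin-responsive in fat and muscle. Its probe lies at chr10:22393146-22393205 on the plus strand of mm8, and it was well above background on 11 of the 12 HF-DR arrays. The log2 ratio was -0.67 at lowest, -0.01 at median and 0.55 at highest in t=0, -0.21, 0.20 and 0.46 in HF-AL, and -1.49, -1.15 and 0.82 in HF-DR. Of the HF-DR arrays 10 were at or below -0.91, under every array of the other groups, and replicates 8 and 9 lay above every array of the other groups, at 0.82 and 0.57. HF-DR was 2.03-fold lower than HF-AL, a log2 difference of -1.02 (standard error 0.19, limma adjusted p = 1.2e-05). Without the tract arrays the groups did not overlap and the difference was -1.30, or 2.46-fold (limma adjusted p = 4.8e-12), and on the shared slides it was -1.54 to -0.73. A fit blocked on slide gave -1.28 (limma adjusted p = 5.0e-06).

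Slc2a10 encodes GLUT10, which carries dehydroascorbate and glucose inside the cell and is mutated in arterial tortuosity syndrome. Its probe lies at chr2:165210418-165210477 on the plus strand of mm8, and it was well above background on 10 of the 12 HF-DR arrays. The lowest, median and highest log2 ratios were -0.22, 0.07 and 0.26 in t=0, -0.29, -0.01 and 0.40 in HF-AL, and -0.73, -0.57 and 1.84 in HF-DR. The pattern was that of Slc2a12: 10 HF-DR arrays were at or below -0.40, under every array of the other groups, and replicates 8 and 9 were at 1.84 and 1.56. With all arrays the difference between HF-DR and HF-AL was -0.23 on the log2 scale (95% interval -0.65 to 0.19, limma adjusted p = 0.35). On the 29 other arrays it was -0.63 (95% interval -0.80 to -0.45, limma adjusted p = 1.3e-07) and the groups did not overlap. On the shared slides it was -1.0 to -0.56, and with slide as a block -0.73 (limma adjusted p = 1.7e-05). The blocked fit draws nothing from HF-DR replicates 8 and 9.

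Over all arrays 1 of the 9 members, Slc2a5, had HF-DR and HF-AL groups that did not overlap, against 13.0% of all genes. Without the tract arrays these were 4 of 9, Slc2a5, Slc2a4, Slc2a12 and Slc2a10, against 25.3% of all genes. The plot of Slc2a1, Slc2a10 and Slc2a12 against the tract genes shows where HF-DR replicates 8 and 9 lie. The mean log2 ratio of the 6 passing skeletal muscle markers was also high on these replicates, at 0.86 and 0.82. It was -0.72 to -0.53 on the HF-DR arrays that are not tract arrays. The part of male tract or muscle RNA in the values of these arrays was not tested.

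**Figure D2:**
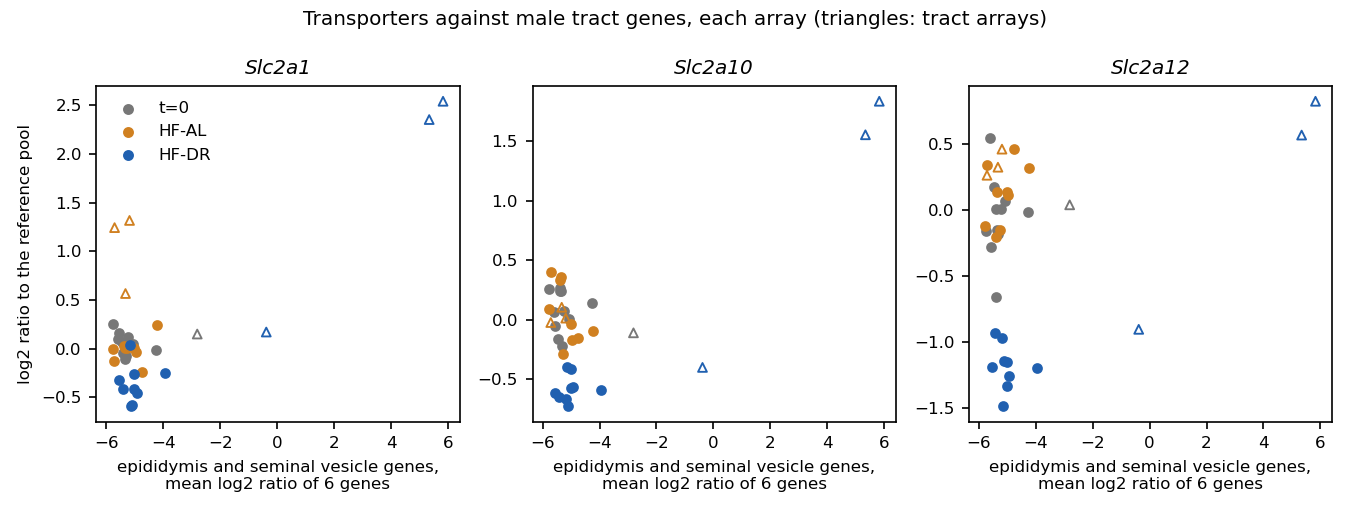
Log2 ratio of Slc2a1, Slc2a10 and Slc2a12 (vertical axes) against the mean log2 ratio of 6 epididymis and seminal vesicle genes (horizontal axes), 1 point for each of 36 arrays, with tract arrays as open triangles. HF-DR replicates 8 and 9, at 5.83 and 5.34 on the horizontal axis, are the highest HF-DR arrays in all 3 panels, while the HF-AL tract arrays are high for Slc2a1 at low values of these genes.

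Slc2a6 encodes GLUT6, a carrier of lysosomal membranes that is abundant in macrophages, spleen and brain. Its probe lies at chr2:26843637-26843696 on the minus strand of mm8, and it was well above background on 10 of the 12 HF-DR arrays. The lowest, median and highest log2 ratios were -0.24, 0.04 and 0.59 in t=0, -0.39, -0.02 and 0.34 in HF-AL, and -0.66, -0.47 and -0.17 in HF-DR. The groups overlapped, and HF-DR was lower than HF-AL by -0.46 on the log2 scale (standard error 0.08, limma adjusted p = 8.1e-06). The tract arrays made little difference, with -0.46 without them (limma adjusted p = 6.9e-05). With slide as a block the value was -0.37 (limma adjusted p = 0.045), and on the shared slides it was -0.43 to -0.12. As for Slc2a3, the macrophage markers were lower in the same group and their part was not tested.

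Slc2a8 encodes GLUT8, a transporter of intracellular membranes, and 2 of its probes passed, both on the minus strand of mm8. At the brighter probe, chr2:32795181-32795240, the lowest, median and highest log2 ratios were -0.21, -0.07 and 0.02 in t=0, -0.25, -0.10 and 0.08 in HF-AL, and -0.37, 0.07 and 0.45 in HF-DR. The lowest HF-DR values were again those of replicates 8 and 9. The difference between HF-DR and HF-AL was 0.13 on the log2 scale (limma adjusted p = 0.068), and 0.21 without the tract arrays (limma adjusted p = 0.0023). A fit blocked on slide gave 0.29 (limma adjusted p = 0.0013). The second probe, chr2:32798201-32798260, gave 0.18 (limma adjusted p = 0.0022) and 0.27 (limma adjusted p = 2.4e-05). Both probes pointed the same way, by 1.20-fold or less in these 2 sets of arrays.

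Slc2a9 encodes GLUT9, a urate transporter that was first grouped with the fructose carriers by sequence. Of its 4 probes 1 passed, at chr5:38637928-38637987 on the minus strand of mm8, and it was well above background on 12 arrays of t=0, 12 of HF-AL and 8 of HF-DR. The lowest, median and highest log2 ratios were -0.12, 0.07 and 0.19 in t=0, -0.27, 0.0034 and 0.24 in HF-AL, and -0.40, -0.0035 and 0.21 in HF-DR. The groups overlapped throughout. HF-DR differed from HF-AL by -0.06 on the log2 scale (95% interval -0.19 to 0.06, limma adjusted p = 0.36), and by 0.03 without the tract arrays (95% interval -0.09 to 0.16, limma adjusted p = 0.66).

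HF-DR was also set against t=0, which shares the HF-DR arrays with the comparison above, so its values are not independent of it. Slc2a5 was higher by 5.34 on the log2 scale (limma adjusted p = 9.6e-21) and Slc2a4 by 1.17 (limma adjusted p = 3.0e-10). Slc2a12 was lower by -0.80 (limma adjusted p = 0.00035), Slc2a3 by -0.69 (limma adjusted p = 1.8e-07) and Slc2a6 by -0.59 (limma adjusted p = 9.8e-08). The same 2 and 3 members were called, against 28.7% of all genes higher and 33.0% lower. On the 29 other arrays 3 members were higher and 5 lower, against 30.5% and 35.8%, with Slc2a10 at -0.66 (limma adjusted p = 2.0e-08) and Slc2a1 at -0.42 (limma adjusted p = 1.3e-06). With all arrays Slc2a1 was at 0.09 (limma adjusted p = 0.79), the opposite sign. On the 6 slides that held both groups Slc2a5 differed by 4.57 to 6.22 and Slc2a4 by 1.15 to 1.68.

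No member was called between HF-AL and t=0, which differ by 12 weeks of ad libitum feeding and of age. This was 0 of 9 by limma, against 0.697% of all genes called in either direction, and 0 of 9 had an unadjusted p under 0.05 by the probe that represents the gene. The second Slc2a8 probe differed by -0.11 (limma unadjusted p = 0.040, adjusted p = 0.35), and by -0.13 without the tract arrays (limma unadjusted p = 0.013, adjusted p = 0.19). The count was 0 under all 11 alternatives as well. The largest difference was that of Slc2a5, 0.45 on the log2 scale (95% interval -0.01 to 0.91, limma adjusted p = 0.40), which was 0.10 without the tract arrays (95% interval -0.18 to 0.37, limma adjusted p = 0.81). Over the 11 alternatives the Slc2a5 difference ran from 0.10 to 0.90, with a limma adjusted p of 0.052 at lowest, close to the threshold. The 95% intervals of the other 8 members ran from -0.44 at lowest, for Slc2a10, to 0.75 at highest, for Slc2a1, whose interval of -0.36 to 0.75 was the widest. These intervals use a spread estimated over all groups, HF-DR included. Without the tract arrays they were -0.19 to 0.07 for Slc2a1 and -0.19 to 0.14 for Slc2a10. The interval of Slc2a4 was -0.33 to 0.17. On the 9 slides with both groups the difference of Slc2a5 ran from -0.66 to 2.42, and on the 5 of them without a tract array from -0.66 to 0.85.

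**Figure D3:**
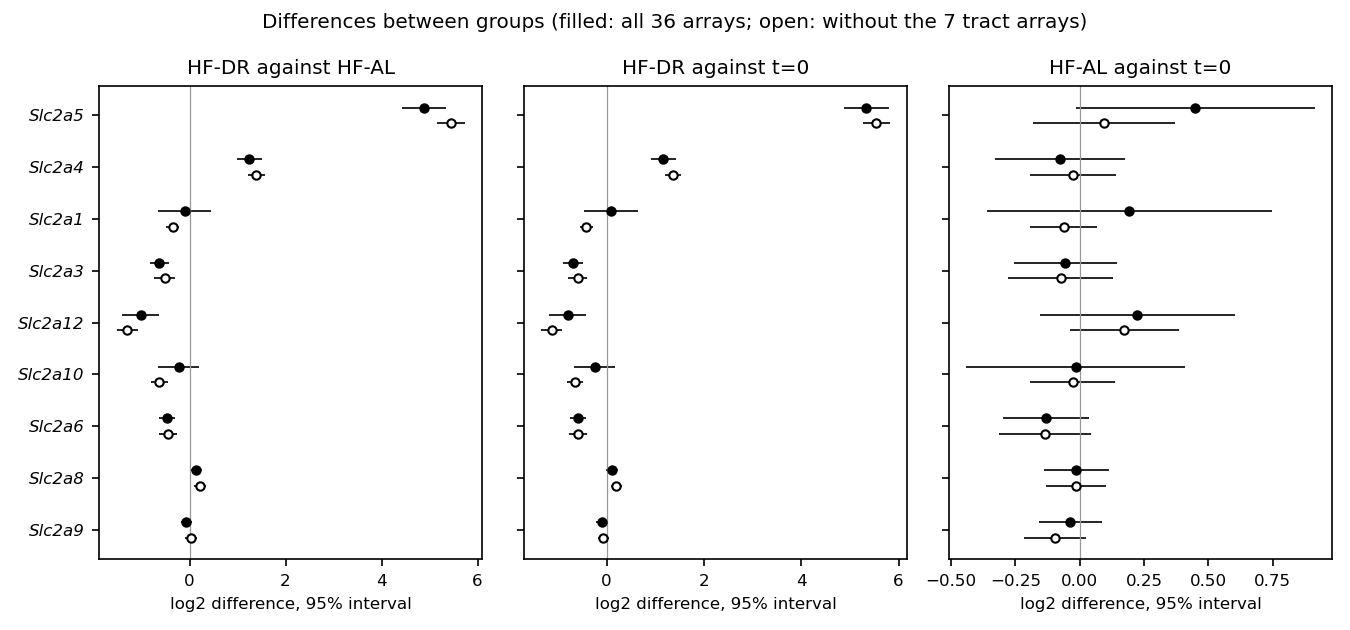
Log2 difference of each transporter with its 95% interval (horizontal axes; the right panel has its own, narrower scale) for HF-DR against HF-AL, HF-DR against t=0 and HF-AL against t=0. Filled points use all 36 arrays and open points leave out the 7 tract arrays. Slc2a5 and Slc2a4 lie to the right of 0 in both comparisons of HF-DR, while Slc2a1 and Slc2a10 leave 0 only without the tract arrays.

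Slc2a5 and Slc2a4 rose in the same animals, but their order within a group differed. Pearson's r between them over the 36 arrays was 0.89, which is carried by the difference between HF-DR and the other groups, as the plot of one against the other shows. After subtraction of group means r was 0.31 over 36 arrays and 0.25 over the 29 without tract arrays. The genes whose pattern over the 36 arrays was most like that of Slc2a5, among 13295 compared, were Rdh11 (r = 0.990), Pgbd5 (r = 0.986), Traf4 (r = 0.984), Parm1 (r = 0.983) and Sqle (r = 0.979). Rdh11 is a retinol dehydrogenase and Sqle, squalene epoxidase, an enzyme of cholesterol synthesis. After subtraction of group means they were Srd5a1, Tinag, Gja1, Ttc25 and Pdxk, with r of 0.873 to 0.895, and without the tract arrays Recql4, Dipk1b, Cyp51, Zfp324 and Mrtfb, with r of 0.701 to 0.814.

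For Slc2a4 the most alike over the 36 arrays were Tmem179 (r = 0.965), Psme3 (r = 0.963), Pcyt2 (r = 0.961), Mrap (r = 0.961) and Pmm1 (r = 0.960). After subtraction of group means they were Fry, Acsf3, Parp16, Pald1 and Pex14, with r of 0.855 to 0.872. Without the tract arrays the first was Mlxipl, which encodes the carbohydrate response element binding protein ChREBP, both over the 29 arrays (r = 0.985) and after subtraction of group means (r = 0.793). Next over the 29 arrays were Pmm1, Oscp1, Cspg4 and Aspg, with r of 0.971 to 0.974. After subtraction of group means the next were Cpsf1, Rptor, Rarb and Cspg4, with r of 0.691 to 0.708. These correlations describe arrays that share a reference pool and a common group difference, and carry no test.

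**Figure D4:**
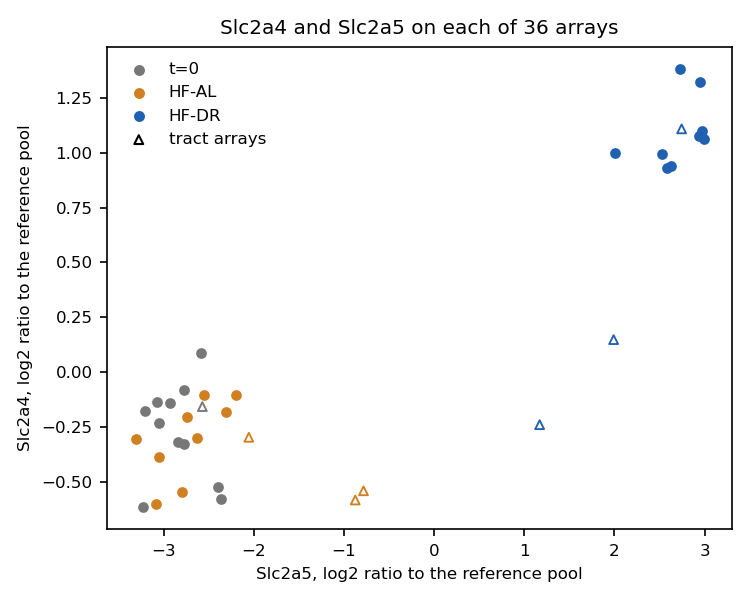
Log2 ratio of Slc2a4 (vertical axis) against that of Slc2a5 (horizontal axis) on each of 36 arrays, coloured by group, with tract arrays as open triangles. The HF-DR arrays lie apart at the upper right, except that replicates 8 and 9 are low for Slc2a4, at -0.24 and 0.15, and the HF-AL tract arrays lie to the right of the other HF-AL arrays.

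Among regulators of Slc2a4 and Slc2a5 transcription, 6 of 14 rose and 7 fell in HF-DR against HF-AL, with a median log2 difference of -0.16, and 6 rose and 6 fell without the tract arrays. The shares of all genes were 28.8% higher and 35.9% lower, and 30.7% and 36.0% without the tract arrays. Mlxipl and its partner Mlx, which pair on carbohydrate response elements, had log2 differences of 1.88 (standard error 0.12, limma adjusted p = 2.8e-16) and 1.86 (standard error 0.09, limma adjusted p = 5.2e-19). The lowest HF-DR array was above the highest array of the other groups for both, 0.59 against 0.08 for Mlxipl and 0.91 against -0.16 for Mlx. For 13.0% of all genes the HF-DR and HF-AL arrays did not overlap. Thra, the thyroid hormone receptor alpha, fell by 0.80, Ebf1, an adipocyte transcription factor, fell by 0.80, Cebpa, another, fell by 0.69, and Hdac5, a histone deacetylase known as a repressor of Slc2a4, fell by 0.57. Of these 14 genes none was called between HF-AL and t=0 by limma, and 1 had an unadjusted p under 0.05.

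All 3 arrestin-like genes fell in HF-DR against HF-AL, with all arrays and without the tract arrays, against 35.9% and 36.0% of all genes. TXNIP and ARRDC4 are known for withdrawing glucose transporters from the cell surface. Txnip was -0.11 to 0.79 in t=0, -0.70 to 0.36 in HF-AL and -2.01 to -1.37 in HF-DR, so every HF-DR array was below every other. HF-DR and HF-AL arrays did not overlap for 13.0% of all genes. It was 2.71-fold lower in HF-DR than in HF-AL, a log2 difference of -1.44 (standard error 0.10, limma adjusted p = 9.5e-15). Arrdc3 fell by 0.76 (limma adjusted p = 5.4e-06) and Arrdc4 by 0.29 (limma adjusted p = 0.0047). Txnip was also lower in HF-AL than in t=0, by -0.52 on the log2 scale (limma adjusted p = 0.0082). It was the only one of the genes in the 6 pathway lists that was called in that comparison, against 0.697% of all genes.

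Of 5 genes that phosphorylate hexoses, 2 rose and 2 fell in HF-DR against HF-AL, and 3 rose and 2 fell without the tract arrays. Among all genes 28.8% rose and 35.9% fell, and 30.7% and 36.0% without the tract arrays. Hk2, the hexokinase of insulin-sensitive tissues, rose by a log2 difference of 1.14 (standard error 0.11, limma adjusted p = 7.7e-11). Adpgk, a glucose kinase that uses ADP, rose by 0.38. Hk1, the broadly expressed hexokinase, fell by 0.48 (limma adjusted p = 1.9e-07) and Hk3 fell by 0.25 (limma adjusted p = 0.00034). Between HF-AL and t=0 limma called none, and 2 of the 5 had an unadjusted p under 0.05.

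Of 6 genes listed under fructose metabolism 3 rose and none fell by limma, and 4 of the 6 had an unadjusted p under 0.05. On the 29 arrays 5 rose. Of all genes 28.8% rose and 35.9% fell, and 30.7% and 36.0% on the 29 arrays. Tkt, which is on this list, encodes transketolase of the pentose phosphate pathway, so its call does not speak for fructose metabolism alone. Tkt rose 5.64-fold, a log2 difference of 2.50 (standard error 0.17, limma adjusted p = 2.0e-15). Sord, sorbitol dehydrogenase, which makes fructose from sorbitol, rose by 0.48 (limma adjusted p = 0.021). Akr1b1, aldose reductase, which makes that sorbitol, rose by 0.54 (limma adjusted p = 0.010), with a highest HF-DR array of 2.00 against a median of -0.01, and without the tract arrays the difference was 0.12 (limma adjusted p = 0.28). Khk, ketohexokinase, the enzyme that traps fructose in the cell, differed by 0.26 with all arrays (limma adjusted p = 0.15) and by 0.63 without the tract arrays (limma adjusted p = 2.3e-09). Tkfc, triokinase, differed by 0.16 (limma adjusted p = 0.073) and Glyctk, glycerate kinase, by -0.10 (limma adjusted p = 0.50), and without the tract arrays by 0.33 and 0.21, both called. Between HF-AL and t=0 limma called none of the 6, and 1 had an unadjusted p under 0.05.

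The 25 genes of GLUT4 vesicle traffic did not move one way: 6 rose and 9 fell, with a median log2 difference of -0.05, and 7 rose and 9 fell without the tract arrays. The shares of all genes were 28.8% and 35.9%, and 30.7% and 36.0% without the tract arrays. Lnpep, the insulin-responsive aminopeptidase that resides in the same vesicles as GLUT4, was 2.00-fold lower in HF-DR than in HF-AL, by -1.0 on the log2 scale (standard error 0.08, limma adjusted p = 1.5e-12). Myo1c, a motor of these vesicles, fell by 0.83, Stxbp3, a partner of syntaxin at the plasma membrane, fell by 0.60, and Clip3 fell by 0.48. Rala and Rab8a, small GTPases of vesicle movement, rose by 0.31 and 0.31. Between HF-AL and t=0 none of the 25 was called by limma and none had an unadjusted p under 0.05.

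Of 13 other sugar carriers that passed, among 19 on the array, 3 rose and 2 fell, and 4 rose and 3 fell without the tract arrays. Among all genes 28.8% rose and 35.9% fell, and 30.7% and 36.0% without the tract arrays. Slc5a3, a sodium-coupled transporter of myo-inositol, fell by 1.30 (standard error 0.11, limma adjusted p = 2.7e-12), and Slc2a13, the proton-coupled myo-inositol transporter of the same family as the members, fell by 1.10 (standard error 0.09, limma adjusted p = 1.2e-12). Slc45a4, of the SLC45 carrier family, rose by 0.45, Mfsd4b1, a glucose carrier, by 0.72 (1.26 without the tract arrays), and Slc5a10, a mannose and fructose transporter, by 0.14. Slc37a1, a glucose 6-phosphate carrier of the endoplasmic reticulum, was at 0.24 (limma adjusted p = 0.21) and without the tract arrays at -0.05 (limma adjusted p = 0.46). Between HF-AL and t=0 none of the 13 was called by limma or had an unadjusted p under 0.05. The sodium-coupled glucose transporters Slc5a1 and Slc5a2 did not pass the filter.

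**Figure D5:**
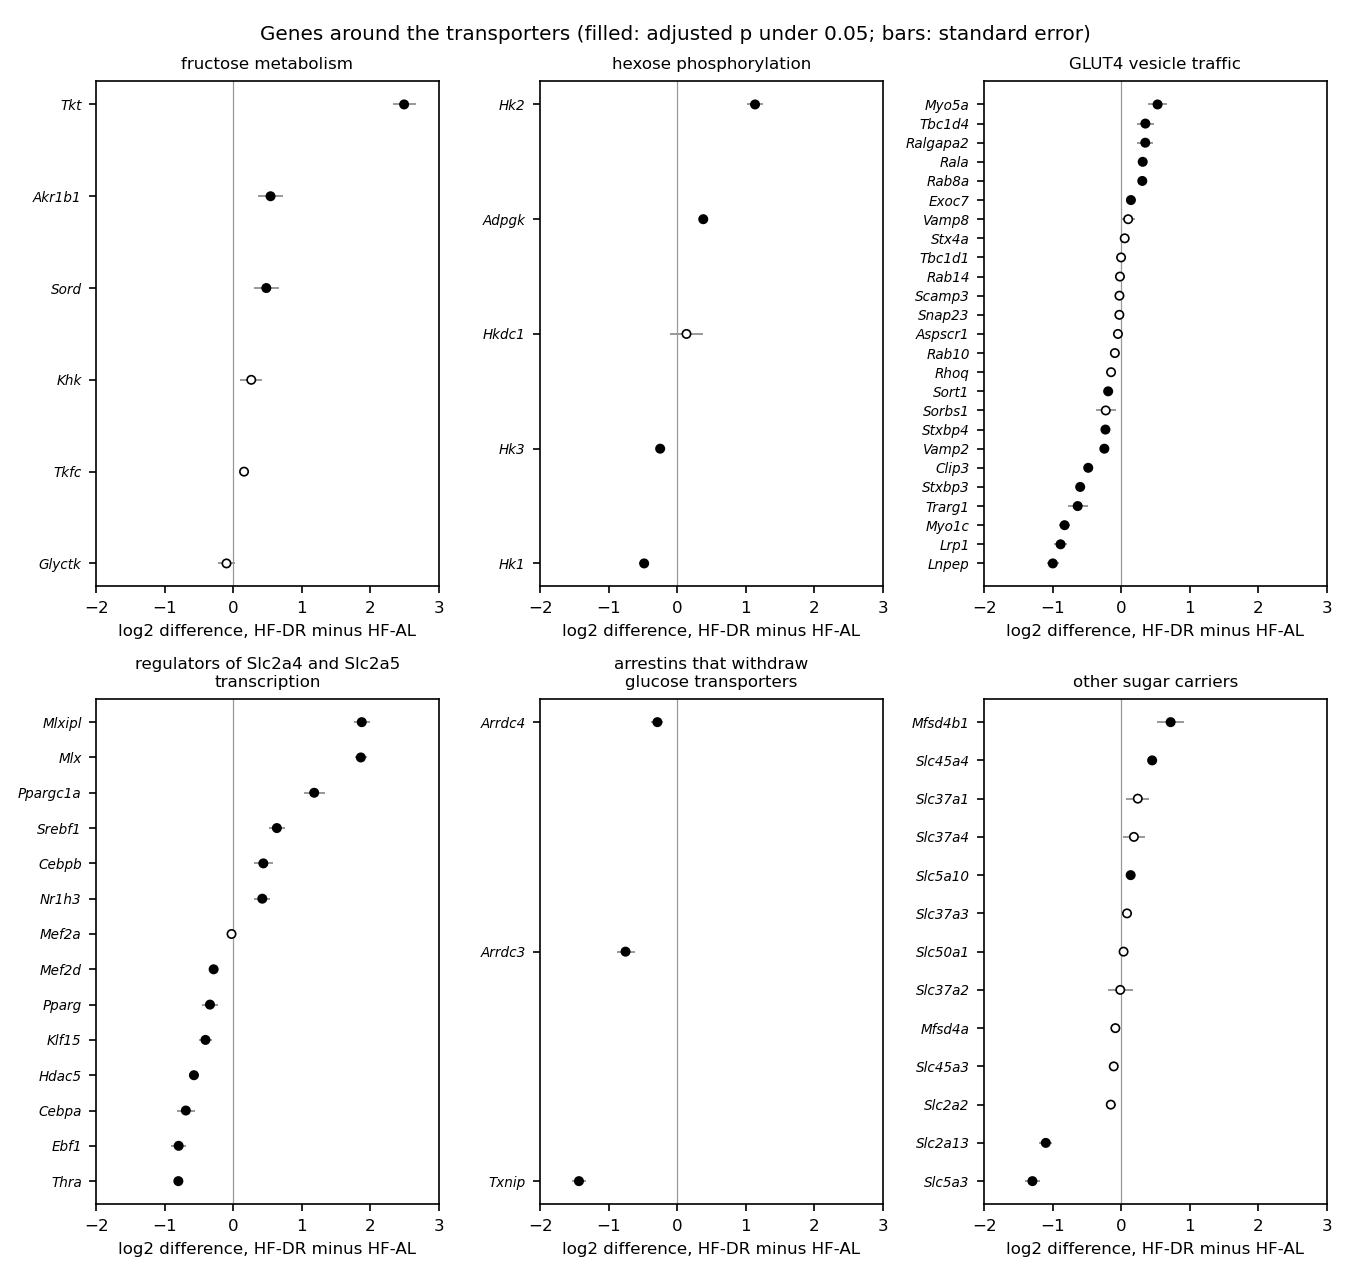
Log2 difference between HF-DR and HF-AL (horizontal axes) with its standard error for the genes of 6 lists around the transporters that passed the filter. Filled points have an adjusted p under 0.05. The 3 arrestins all lie left of 0, Mlxipl and Mlx lie at 1.88 and 1.86 among the regulators, and the 25 genes of GLUT4 vesicle traffic spread on both sides of 0.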

How the data were processed

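The authors deposited 36 scans of two-colour Agilent mouse arrays, and the submitters' processing notes name Agilent Feature Extraction 9.5.3.1. The intensity values used, mean spot signal and median local background of each channel, are linear and not normalized per the file headers. The processed intensity values that the authors obtained with Feature Extraction served as an alternative. The deposited log2 values of the series matrix cover 22510 probes, follow log2 Cy5 (r of 0.991 to 0.999 on each array) and not the ratio (r of 0.04 to 0.21), have medians of 9.26 to 9.29, and hold 8 of the 9 members. Their making is not described in the sources used here. Per the labels, each animal's Cy5 RNA met a Cy3 pool of all samples, in 1 dye orientation, so a dye effect cancels between groups but was not measured.

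Background was corrected with normexp (offset 50) after 84 spots on 12 arrays whose net signal was below -50 were set aside, followed by loess normalization of each array (4 iterations, with weight 0 for control spots). Flagged spots were left out and spots of a probe averaged. The comparisons used limma (version 3.58.1, R 4.3.3), over 24704 of 41174 probes, with the intervals from its moderated degrees of freedom. The brightest passing probe spoke for a gene. Figures were drawn with matplotlib 3.10.9. The fit was run on simulated data with independent noise at the HF-AL spread in every group. That simulation held no slide effects or outlying arrays, so it does not speak for these. Tests are two-sided. The arrays came from 21 slides. HF-DR replicates 7 to 12 and HF-AL replicates 1 to 3 were on slides that held no other group. For these arrays slide and group cannot be told apart, and the main fit had no term for slide. With slide as a block, entered as a fixed term, these arrays do not inform the group differences. The HF-DR tract arrays are among them.

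Genes named were all members, up to 4 genes of each pathway list with the smallest adjusted p in HF-DR against HF-AL and up to 2 of the opposite direction, and the 5 genes most like Slc2a5 and Slc2a4. Values are given for the passing probes of the members and not for the probes that failed the filter. Khk, Acsl1 and the carriers that did not pass were named outside this rule, after their values were seen, as was the listing of likeness without the tract arrays. The members, the lists and the tract arrays were chosen with earlier results of these data known. Akr1b1 was looked up by the symbol Akr1b3. Some genes of the hexose and fructose lists are not reported here.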

Additional observations from a re-analysis of the deposited data

How the results depend on the processing

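A set of 11 alternatives was run for each of the 3 comparisons. The calls of Slc2a5, Slc2a4, Slc2a3, Slc2a6 and Slc2a12 in HF-DR against HF-AL and in HF-DR against t=0 kept their direction and their side of the threshold under every one that held them; Slc2a4 is not in the series matrix. In HF-DR against HF-AL the log2 difference ranged from 4.28 to 5.61 for Slc2a5, 0.99 to 1.51 for Slc2a4, -0.77 to -0.38 for Slc2a3, -0.93 to -0.27 for Slc2a6 and -1.45 to -0.76 for Slc2a12. The count of members called in HF-DR against HF-AL was 8 with slide as a block and 8 without the tract arrays, and in HF-DR against t=0 it was 8 without the tract arrays, against 5 in each. Slc2a1 in HF-DR against t=0 turned from 0.09 to -0.42 without the tract arrays. Among 14 gains of a call, others of which stand beside the values of Slc2a1, Slc2a8 and Slc2a10, Slc2a8 was gained in HF-DR against HF-AL at 0.14 with scaled arrays, 0.29 with slide as a block and 0.15 as a mean over its probes, and Slc2a9 in HF-DR against t=0 at -0.37 with the authors' processed signals. The sign changed in 7 further cases that were called in neither setting. Why these moved was not tested. Fewer arrays enter when tract arrays are left out, and the standard errors in HF-DR against HF-AL changed too. They went from 0.27 to 0.07 for Slc2a1 and from 0.21 to 0.09 for Slc2a10. The fit with slide as a block likewise draws nothing from the HF-DR tract arrays.

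For HF-AL against t=0 the number of probes called was 167, and 98 with the spots far below their local background included, 328 with the authors' processed signals, 1526 with log ratios scaled between arrays, 105 with no filter, 266 without the tract arrays and 455 with only the 24 arrays of the groups compared. Of these calls 56.3% were higher, against 84.7% with those spots included, 37.2% with processed signals and 38.2% in the series matrix; the cause was not tested. For HF-DR against HF-AL 47.8% of the calls were higher, and 56.5% in the series matrix.

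The groups share the replicate numbers 1 to 12, and nothing in the labels ties equal numbers together. Correlations of the deviations of same-numbered arrays were above 0.1 in 9 of 12 pairs of HF-DR with HF-AL (-0.12 to 0.39, median 0.19), 2 of 12 of HF-AL with t=0 and 0 of 12 of HF-DR with t=0. As not every pair was above 0.1, the numbers were not taken as pairing, and 5 of 36 samples were closest to their own number. With the replicate block, 5, 0 and 5 members and 15673, 196 and 14929 probes were called, against 15693, 167 and 14859 without it, and Slc2a5 kept 4.89. The precision is limited by 12 arrays a group and, for Slc2a9, by 8 HF-DR arrays above background. HF-DR arrays above background were 10 for Slc2a6, 10 for Slc2a10 and 11 for Slc2a12, which limits their low HF-DR values too.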
